A study of Mus musculus with 27 samples.

Results

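The Cyp4a family of mouse liver was described across the lobule and across pregnancy through its 6 members Cyp4a10, Cyp4a12a, Cyp4a12b, Cyp4a14, Cyp4a31 and Cyp4a32, which were taken by symbol from a table of 21823 genes. RNA was sequenced from zone 1, zone 2 and zone 3 of the liver lobule, areas that were cut with a laser from thin sections of embedded liver, in female wild-type mice labelled C57BL/6, which the study's methods give as C57BL/6N. Livers came from non-pregnant mice (NP) and from mice on day 8 (dpc8) or day 16 (dpc16) post coitum, and the study's methods describe adult animals. Each of the 9 groups of stage and zone held 3 libraries numbered 1 to 3, which makes 27 libraries. The labels do not say whether the numbers stand for separate mice or whether zones of a number came from 1 mouse. The study describes 3 independent experiments for the zones and states in general that its experiments used different mice. It does not say which mouse gave which library, so the spread between libraries may in part be technical. The question was how the members differed between zones and between stages.

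CYP4A enzymes are cytochromes P450 of the endoplasmic reticulum that hydroxylate fatty acids at the terminal, omega carbon, the opening step of the route to dicarboxylic acids that peroxisomes shorten. They take electrons from the reductase encoded by Por. Cyp4a10 and Cyp4a14 are textbook targets of PPARA, the nuclear receptor that fatty acids activate and that also drives genes of peroxisomal and mitochondrial beta-oxidation and of ketone body synthesis, while Cyp4a12a and Cyp4a12b are known as male-predominant liver genes.

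The 6 genes lie in 1 cluster on chromosome 4 (mm10), chr4:115299046-115621602. Cyp4a12a (chr4:115299046-115332815) and Cyp4a12b (chr4:115411624-115439034) come first, Cyp4a14 (chr4:115486200-115496142) follows on the minus strand, and Cyp4a10 (chr4:115518264-115533649), Cyp4a31 (chr4:115563649-115579015) and Cyp4a32 (chr4:115600969-115621602) follow on the plus strand. Their coding sequences, aligned without the stop codon, fell into 3 kinds. Cyp4a10 was identical to Cyp4a32 at 97.18% and to Cyp4a31 at 96.59% of aligned bases, Cyp4a12a was identical to Cyp4a12b at 98.49%, and Cyp4a14 stood alone, with 75.02% to 75.94% identity to the other five. The differences can be read in 60 coding bases of exon 6, the stretch in which the 4 abundant members differ most, printed with every base that departs from Cyp4a10 in capitals (GENCODE vM21 transcripts, read along the coding strand).

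Cyp4a10, chr4:115524735-115524794, plus strand: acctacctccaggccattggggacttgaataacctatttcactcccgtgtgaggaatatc
Cyp4a32, chr4:115610463-115610522, plus strand: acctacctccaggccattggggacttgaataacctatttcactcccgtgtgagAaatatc
Cyp4a31, chr4:115570196-115570255, plus strand: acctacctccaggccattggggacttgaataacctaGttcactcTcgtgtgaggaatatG
Cyp4a12a, chr4:115326638-115326697, plus strand: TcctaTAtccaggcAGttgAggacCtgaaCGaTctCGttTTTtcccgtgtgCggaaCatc
Cyp4a12b, chr4:115432891-115432950, plus strand: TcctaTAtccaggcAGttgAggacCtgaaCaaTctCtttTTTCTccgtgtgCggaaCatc
Cyp4a14, chr4:115492166-115492225, minus strand: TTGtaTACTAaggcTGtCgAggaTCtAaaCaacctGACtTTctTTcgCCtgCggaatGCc

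In this stretch Cyp4a32 departed from Cyp4a10 at 1 base, Cyp4a31 at 3, Cyp4a12a and Cyp4a12b at 17 each and Cyp4a14 at 28. In exon 11, by contrast, Cyp4a10 (chr4:115529442-115529518), Cyp4a31 (chr4:115574890-115574966) and Cyp4a32 (chr4:115614820-115614896) share 77 bases letter for letter, which are shown as a stretch in which the 3 genes cannot be told apart. It is shorter than a read of 86 bases.

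Shared stretch of exon 11, plus strand: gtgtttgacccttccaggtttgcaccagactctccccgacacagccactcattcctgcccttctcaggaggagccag

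The authors kept only reads that mapped to a single place, so the likeness of the paralogs bears on every level given here. Of all windows of 86 bases, the length of a read, in the member's longest coding transcript, 15.8% in Cyp4a10, 25.3% in Cyp4a32 and 11.2% in Cyp4a31 occurred with the same letters in a transcript of another gene, against 38.6% in Cyp4a12a, 39.0% in Cyp4a12b and 0 of 2411 in Cyp4a14. With up to 2 mismatches to another Cyp4a or Cyp4b gene, the share was 58.3% in Cyp4a10, 68.0% in Cyp4a32 and 34.4% in Cyp4a31, 69.5% in Cyp4a12a and 70.3% in Cyp4a12b, and again 0 of 2411 in Cyp4a14. Cyp4a14 thus had no shared window in either search, of which the one with mismatches covered Cyp4a and Cyp4b genes alone, whereas levels of Cyp4a10, Cyp4a31 and Cyp4a32 are uncertain where reads could be lost or exchanged between them. How many reads were exchanged was not tested. The Cyp4a32 model of 1530 bases holds hardly more than its coding sequence of 1527 bases, so its FPKM rests on coding reads alone.

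**Figure D1:**
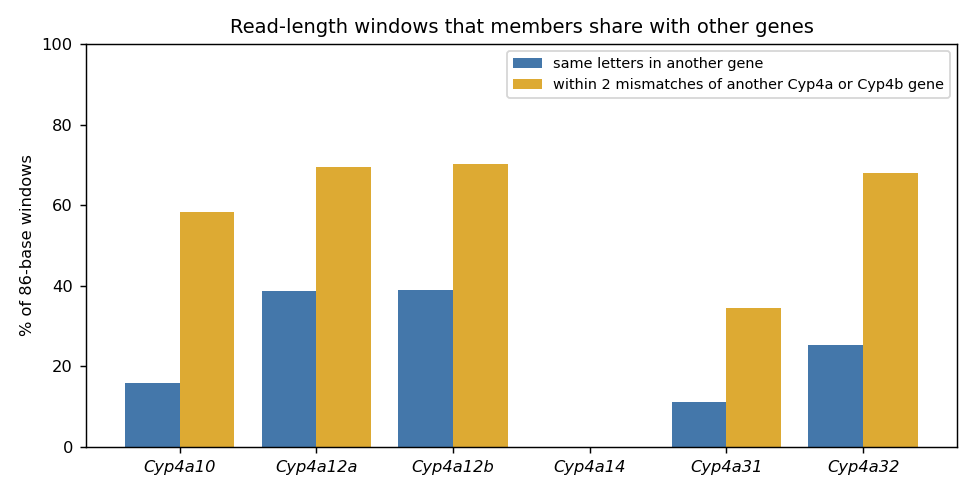
Share of 86-base windows of each member's longest coding transcript (percent, bars from 0) that occur with the same letters in another gene (blue) or lie within 2 mismatches of another Cyp4a or Cyp4b gene (yellow). Cyp4a14 has no such window, and the Cyp4a12 pair and Cyp4a32 have the largest shares, 68.0% to 70.3% within 2 mismatches.

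The promoter table in use (RefSeq, GRCm38.p6) held 1 of the 6 members, Cyp4a32. The 250 bases before its start, chr4:115600688-115600937 on the plus strand, are shown because it is the promoter at hand of a tested member. A TATAAA match, read on the opposite strand, stands in capitals.

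Cyp4a32 promoter: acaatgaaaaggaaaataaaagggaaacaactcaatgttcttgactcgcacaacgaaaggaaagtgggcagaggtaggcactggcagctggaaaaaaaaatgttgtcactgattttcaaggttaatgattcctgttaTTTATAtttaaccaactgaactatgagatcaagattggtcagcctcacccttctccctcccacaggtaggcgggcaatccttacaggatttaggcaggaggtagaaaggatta

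TATAAA occurred on either strand in 12.4% of 32851 such promoters. AGGTCA, the core letters that nuclear receptors such as PPARA recognise, was present on either strand in 14% and was not found in these letters. These are matches of letters and say nothing about binding.

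Levels are given as FPKM, fragments per kilobase of transcript scaled to the mapped fragments of the library, so members can be compared per length. Cyp4a10 ran from 78.0 to 2988 FPKM over the 27 libraries with a median of 591, and Cyp4a14 from 6.37 to 2137 with a median of 428. Cyp4a32 ranged from 2.81 to 67.1 FPKM (median 19.1) and Cyp4a31 from 4.17 to 229.7 (median 15.7). Cyp4a10 and Cyp4a14 thus made up most of the family's RNA: Cyp4a10 gave 42.6% to 67.1% of the summed Cyp4a FPKM in every library, and Cyp4a14 29.1% to 54.7% in the NP and dpc8 libraries. The whole family held 0.0298% to 0.251% of a library's FPKM in NP mice, 0.0903% to 0.444% at dpc8 and 0.0249% to 0.562% at dpc16.

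Cyp4a12a was listed at 0 in 15 libraries and reached 1 FPKM in 1, and Cyp4a12b was listed at 0 in 19 and never reached 1, so 4 of the 6 members passed the filter of at least 1 FPKM in at least 3 libraries and were tested. The steps between low FPKM values gave an estimate of depth, in which 1 read per kilobase was worth 0.0301 to 0.133 FPKM across libraries (median 0.0611), and 3 reads of Cyp4a12b correspond to 0.0412 to 0.182 FPKM. On that scale Cyp4a12b had over 3 reads in 4 libraries, 50 reads in dpc16 zone 2 number 3, 48 in dpc16 zone 3 number 3, 12 in NP zone 3 number 2 and 5 in dpc8 zone 1 number 1. All 4 belong to the 6 libraries that also carried RNA of Y-linked genes (a summed level of over 5 FPKM in mice labelled female). The highest Cyp4a12a value, 1.35 FPKM or an estimated 59 reads in NP zone 3 number 2, came from such a library too, whereas the next highest, 12, 11 and 20 reads in dpc8 zone 3, numbers 1 to 3, came from libraries with 0 to 0.372 FPKM of Y-linked RNA. The source of these reads was not tested, and reads common to the Cyp4a12 pair could not be assigned to either.

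The labelled zones were checked against markers. The summed level of 13 periportal markers was 5671 to 12100 FPKM in zone 1 and 400 to 3590 in zone 3, and that of 13 pericentral markers was 380 to 732 in zone 1 and 7920 to 19925 in zone 3. The 6 libraries with Y-linked RNA had sums of 7.92 to 23.2 FPKM for 4 Y-linked genes, against at most 2.97 in the others, and also the highest mean log2 level of 14 connective tissue and smooth muscle markers, 4.84 to 6.21. They were NP zone 1 number 1, NP zone 3 number 2, dpc8 zone 1 number 1, dpc8 zone 2 number 2 and dpc16 zones 2 and 3 number 3. In RNA from tissue areas, fewer cells of a type and less RNA per cell cannot be told apart.

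The summed Cyp4a level at dpc16 was 3445 to 5169 FPKM in the libraries numbered 1 and 2, above every NP and dpc8 library, and 234, 130.2 and 382 FPKM in those numbered 3 of zones 1 to 3, against 209.7 to 1514 in NP mice. Hepatocyte markers were also higher at dpc16, though not in step with it: the summed FPKM of 7 of them was 149713 to 234109 in the numbers 1 and 2 and 179033, 48568 and 63994 in number 3 of zones 1 to 3, against 34304 to 105041 in NP mice and 35935 to 70753 at dpc8, and Alb alone held 15.2% to 21.0% of the FPKM of the numbers 1 and 2, 17.3%, 7.98% and 9.59% of that of number 3, and 3.71% to 11.98% in NP mice. Averaged over zones, the hepatocyte markers Alb (2.92-fold), Apoa1 (2.27-fold) and Hpx (1.85-fold) rose from NP to dpc16 and Ttr fell (log2 change −1.49), and the Kupffer cell markers Clec4f (−0.96), Cd5l (−0.94) and C1qa (−0.85) fell. Of these 7, only Ttr was called with 1 mean per number and stage. The part of these shifts in the Cyp4a levels was not tested. In zone 1, Cyp4a10 measured 2988, 2257 and 144 FPKM in the libraries numbered 1, 2 and 3, in zone 2 it measured 2942, 2269 and 78.0, and in zone 3 it measured 2289, 2164 and 210.0. In each zone the libraries numbered 1 and 2 lay above every NP and dpc8 library, and the library numbered 3 lay within or below the NP range. Cyp4a14 followed the same order, with 1442, 925 and 6.37 FPKM in zone 1, 1930.4, 1268 and 18.3 in zone 2, and 2137, 1936 and 105 in zone 3.

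In NP mice Cyp4a14 had measured 218, 145 and 98.3 FPKM in zone 1, 643, 232 and 296 in zone 2, and 790.1, 304 and 278 in zone 3. The dpc16 libraries numbered 3 therefore held the lowest Cyp4a14 levels of their zone at any stage. Cyp4a32, at 57.4, 48.5 and 12.9 FPKM in zone 1, 67.1, 51.4 and 5.82 in zone 2 and 51.6, 54.9 and 8.18 in zone 3, was also lowest in number 3. In zones 2 and 3 number 3 lay below every NP library of the zone (lowest 19.2 and 9.23). In zone 1 it lay above every NP and dpc8 library (highest 11.6 and 11.1).

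Cyp4a31 was the member that was higher at dpc16 in every library. It measured 4.17, 7.53 and 8.18 FPKM in NP zone 1, 12.3, 7.47 and 6.64 in zone 2 and 24.1, 5.00 and 4.46 in zone 3. At dpc16 the values were 211, 214 and 70.3 in zone 1, 229.7, 203 and 27.4 in zone 2, and 221, 217 and 57.3 in zone 3. The lowest dpc16 library of each zone thus lay above the highest NP library of that zone, also among the libraries numbered 3.

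**Figure D2:**
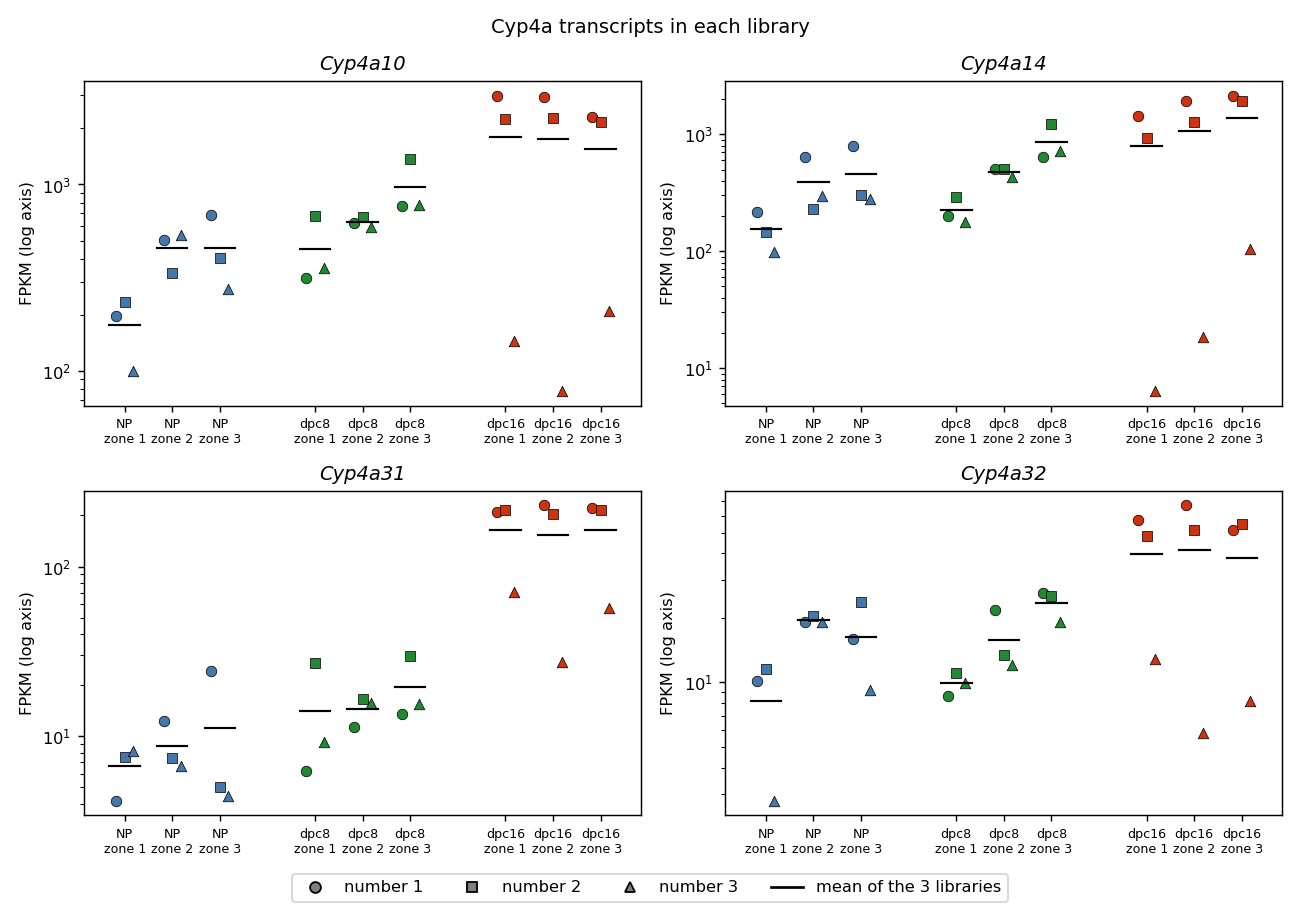
FPKM of the 4 tested members (log axes) in each library, by stage and zone, with marker shape for the library number and a line for the mean of the 3 libraries of a group. The dpc16 libraries numbered 1 and 2 are the highest of their zone for every member, and those numbered 3 are lower for every member, at 6.37 to 105 FPKM for Cyp4a14 and 27.4 to 70.3 for Cyp4a31.

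Tested with limma over all 12952 genes that passed the filter, Cyp4a31 rose from NP to dpc16 in all 3 zones and was the single member called. On the log2(FPKM + 1) scale, the change in zone 1 was 4.32 (SE 0.72), a 20.0-fold rise (limma adjusted p = 0.00163). In zone 2 it was 3.53 (SE 0.72), or 11.6-fold (limma adjusted p = 0.00715), and in zone 3 it was 3.91 (SE 0.72), or 15.1-fold (limma adjusted p = 0.00395). Among all genes tested, the share called was 1.37% in zone 1, 2.66% in zone 2 and 1.32% in zone 3, beside 1 of 4 members in each zone. The groups did not overlap for Cyp4a31 in any zone nor for Cyp4a32 in zone 1, where the share of genes without overlap was 17.4% in zones 1 and 2 and 16.7% in zone 3. When each library was left out in turn, Cyp4a31 stayed called in all 6 fits of each zone, with adjusted p of at most 0.0490. With a spread taken from the groups compared alone, the calls were lost in zone 2 (adjusted p = 0.196) and zone 3 (adjusted p = 0.122).

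The other members were not called, and their intervals were wide. Cyp4a10 changed by 2.57 in zone 1 (95% interval 0.25 to 4.88, limma adjusted p = 0.378), by 0.84 in zone 2 (−1.47 to 3.15) and by 1.26 in zone 3 (−1.05 to 3.57). For Cyp4a14 the estimates were 0.54 (−2.73 to 3.82), 0.03 (−3.24 to 3.30) and 0.90 (−2.37 to 4.17), and for Cyp4a32 they were 2.08 (0.57 to 3.58, limma adjusted p = 0.211), 0.50 (−1.01 to 2.00) and 0.88 (−0.62 to 2.39). With the library number as a block, 1 effect per number shared by all stages, Cyp4a32 passed in zone 1 (2.08, limma adjusted p = 0.0439). Deviations of NP and dpc16 libraries of the same number and zone had a median r of −0.035. The number thus did not pair libraries across these stages, and the added call does not rest on a pairing. The median of the 4 members' changes was 2.32, 0.67 and 1.08 in zones 1 to 3, against −0.05, 0.04 and 0.01 over all genes tested.

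These estimates turn on the dpc16 libraries numbered 3, which stand apart. Left out after their levels had been seen, they gave a Cyp4a10 change of 3.95, 2.52 and 2.39 in zones 1 to 3 and a Cyp4a14 change of 2.97, 2.14 and 2.32. Cyp4a32 then changed by 2.73, 1.54 and 1.74, and Cyp4a31 by 4.85, 4.51 and 4.55. All 12 values passed the threshold in that fit, for which the share of all genes called is not given here. Since the libraries were chosen by the outcome, this is a description and not a test. Leaving out the 6 libraries with Y-linked RNA, also chosen after seeing the data and including the dpc16 libraries numbered 3 of zones 2 and 3, gave 4 calls in place of 3, the added one being Cyp4a32 in zone 1 (2.31, limma adjusted p = 0.0222). The share of all genes called then was 2.92%, 4.45% and 3.61% in zones 1 to 3, up from 1.37%, 2.66% and 1.32%.

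**Figure D3:**
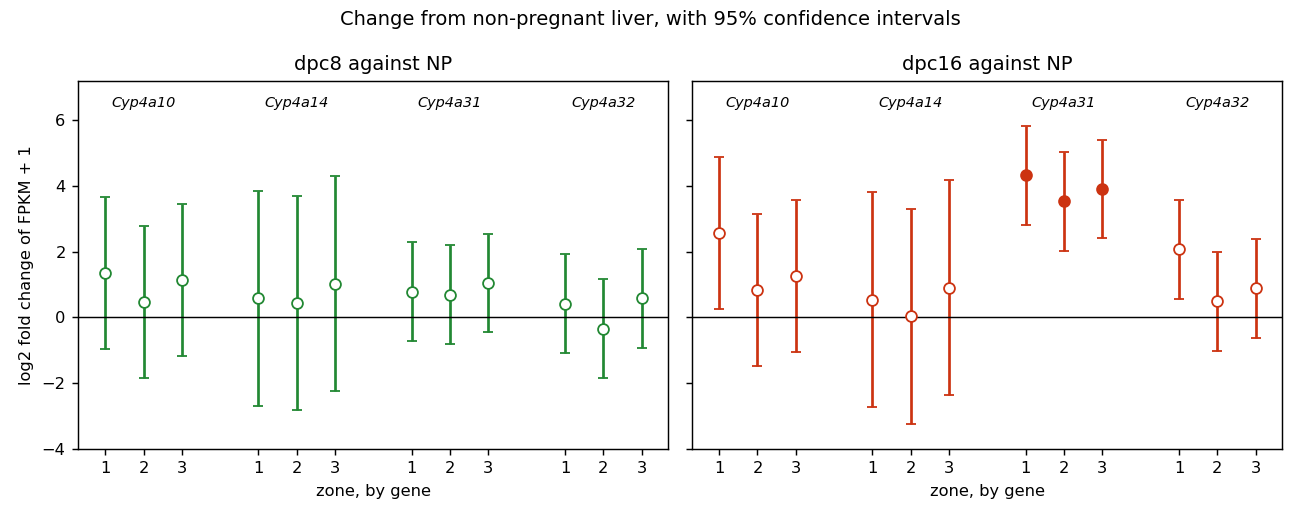
Fitted log2 change of FPKM + 1 from NP to dpc8 (left) and to dpc16 (right) in zones 1 to 3 for each tested member, with 95% confidence intervals and filled points where the limma adjusted p passed 0.05. Cyp4a31 at dpc16 is filled in all 3 zones, at 3.53 to 4.32, and the intervals of Cyp4a14 are the widest.

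Averaged over the 3 zones, Cyp4a31 rose by 3.92 from NP to dpc16 (SE 0.42, 15.2-fold, limma adjusted p = 9.21e-07), where 11.8% of all genes were called. Cyp4a10 changed by 1.56 (0.22 to 2.89, limma adjusted p = 0.131), Cyp4a32 by 1.15 (0.28 to 2.02, limma adjusted p = 0.0810) and Cyp4a14 by 0.49 (−1.40 to 2.38). Zones of the same number deviated together at dpc16, so the averaged test counts related libraries as separate ones. With 1 mean per number and stage, Cyp4a31 stayed called (limma adjusted p = 0.00893), while the share of all genes called was 3.08%. Without the 6 libraries with Y-linked RNA, 2 of which are low dpc16 libraries numbered 3, Cyp4a10 was called at 2.52 (limma adjusted p = 0.00279) and Cyp4a32 at 1.96 (limma adjusted p = 0.000321). That fit called 16.6% of all genes and again counts zones as separate libraries. The libraries left out were chosen after the data had been seen, so this is a description.

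Against dpc8, a comparison that shares its dpc16 libraries with the one above, Cyp4a31 was again the single member called. It was higher at dpc16 by 3.54 in zone 1 (SE 0.72, limma adjusted p = 0.0116), by 2.84 in zone 2 (SE 0.72, limma adjusted p = 0.0480) and by 2.86 in zone 3 (SE 0.72, limma adjusted p = 0.0492). The share of all genes called was 2.01%, 1.51% and 1.37%. The groups did not overlap for Cyp4a31 in any zone nor for Cyp4a32 in zone 1, beside 19.9%, 13.8% and 23.3% of all genes in zones 1 to 3. Averaged over zones, Cyp4a31 was higher by 3.08 (limma adjusted p = 3.43e-05), with 11.1% of all genes called. The calls in zones 2 and 3 lay close to the threshold. With only the groups compared, their adjusted p was 0.463 and 0.0742. They were also lost with a pseudocount of 0.1 (adjusted p of 0.0502 and 0.0523) and, in zone 2, when any single dpc8 library or dpc16 library number 1 or 2 of the zone was left out, with adjusted p up to 0.211. In zone 3 the same held, with adjusted p up to 0.201. In zone 1 the call was lost without dpc16 number 1 or 2 or dpc8 number 1 or 3 (adjusted p of 0.0507 to 0.0764).

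The dpc16 libraries numbered 3 were then set beside the mean of numbers 1 and 2 of the same zone, as a description of single libraries. Cyp4a14 was 186 times lower in zone 1, 87.3 times lower in zone 2 and 19.3 times lower in zone 3. For Cyp4a10 the ratios were 18.2, 33.4 and 10.6, for Cyp4a32 they were 4.11, 10.2 and 6.51, and for Cyp4a31 they were 3.02, 7.89 and 3.82. Among the 12952 genes ranked by this difference on the log2 scale, Cyp4a14 was the lowest of all in zones 1 and 2 and 2nd lowest in zone 3, and Cyp4a10 was 2nd, 2nd and 5th lowest. The ranks of Cyp4a32 from the lowest were 42, 26 and 21 and those of Cyp4a31 were 88, 36 and 90. Of the members, Cyp4a14 and Cyp4a10 thus lay nearest the low end in each zone, and Cyp4a31 farthest from it.

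Other targets of PPARA were low in the same libraries. Of 35 genes on the list, none of them a member, 22 were lower by over 1 log2 unit in number 3 of zone 1, 31 in zone 2 and 30 in zone 3, and 0 were higher by as much in any zone. Over all genes tested, 3.23%, 14% and 6.58% were that much lower and 6.49%, 19.9% and 16% that much higher. The list's median difference was −1.20, −2.19 and −1.52, against 0.02, 0.03 and 0.02 for all genes. Ehhadh, the bifunctional enzyme of peroxisomal beta-oxidation, measured 712, 734 and 119 FPKM in the 3 libraries of dpc16 zone 1 and 884, 809 and 38.1 in zone 2. Ehhadh was thus lowest in number 3 of both zones. Ppara itself, with 107, 90.9 and 100.1 FPKM in zone 1, did not share the split there, and it measured 80.3, 62.7 and 38.8 in zone 2 and 136, 93.3 and 74.9 in zone 3.

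Other features of the libraries numbered 3 moved with these levels, and they differed between zones. The summed FPKM of the connective tissue and smooth muscle markers was 247 in number 3 of zone 1 against 94.9 and 96.2 in numbers 1 and 2, 4984 against 109.6 and 91.3 in zone 2, and 2763 against 134 and 149 in zone 3. All 14 markers reached 1 FPKM in number 3 of zones 2 and 3, and 13 did so in zone 1. Y-linked RNA summed to 2.97, 23.2 and 16.6 FPKM in zones 1 to 3, against 0 in the numbers 1 and 2 of each zone. The hepatocyte markers were lower by over 1 log2 unit for 7 of 7 genes in zone 2 and 5 of 7 in zone 3 but for 0 of 7 in zone 1, where their median difference was −0.18 and that of the periportal markers was 0.13. Of 13 periportal markers, 12 were that much lower in zone 2 (median −1.87) and 10 in zone 3 (median −1.44), and so were 5 of 6 Kupffer cell markers and 5 of 6 endothelial markers in zone 2, and 3 of 6 and 1 of 6 in zone 3. The fall of Cyp4a14 was the largest in zone 1, in which hepatocyte markers and connective tissue markers departed least. Cyp4a10, Cyp4a32 and Cyp4a31 fell the most in zone 2 (33.4, 10.2 and 7.89 times), as did the PPARA targets by median (−2.19). In zone 2 the hepatocyte markers and connective tissue markers departed most. What part these features had in the low Cyp4a levels was not tested.

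**Figure D4:**
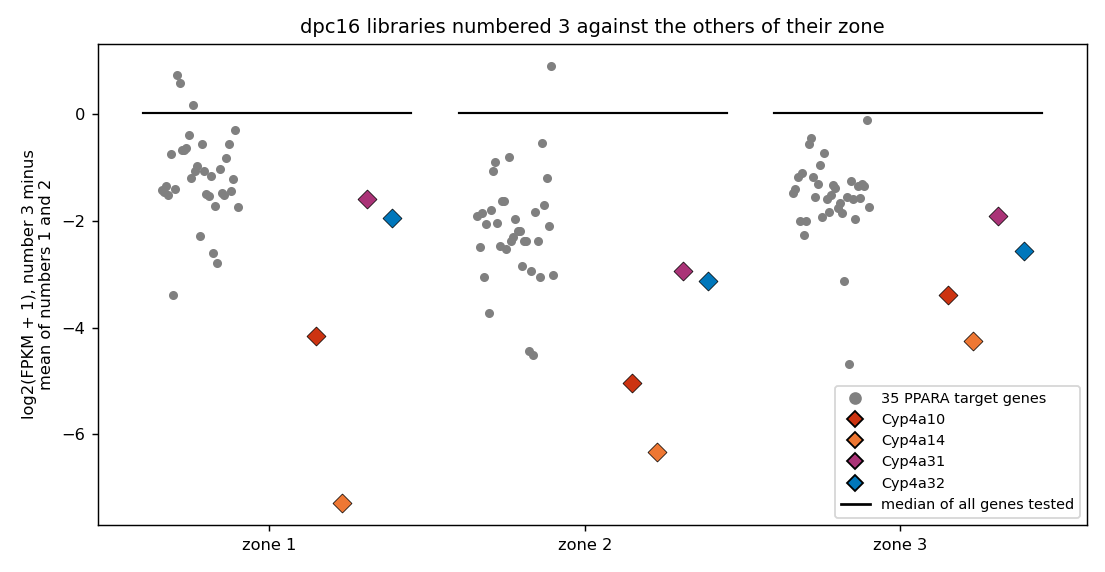
Difference in log2(FPKM + 1) between the dpc16 library numbered 3 and the mean of numbers 1 and 2 in each zone, for 35 PPARA target genes (grey) and the 4 tested members (diamonds), with a line at the median of all genes tested. Cyp4a14 and Cyp4a10 lie below nearly all of the PPARA targets, at −7.29 and −4.16 in zone 1, and the line stays near 0.

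Within the family, the ratios between members varied at dpc16. Cyp4a14 stood at 0.550 to 1.28 times Cyp4a10 in NP mice and at 0.434 to 0.933 times at dpc8, and in the dpc16 libraries numbered 1, 2 and 3 at 0.483, 0.410 and 0.0442 times in zone 1, 0.656, 0.559 and 0.235 times in zone 2 and 0.934, 0.895 and 0.502 times in zone 3. The ratio was thus lowest in number 3 of each zone, and in zone 1 the numbers 1 and 2 also lay below the NP range. Cyp4a31 stood at 0.0123 to 0.0815 times Cyp4a10 in NP mice and 0.0176 to 0.0398 times at dpc8, and at 0.0705 to 0.488 times at dpc16, the 3 highest of these ratios being in the libraries numbered 3.

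From NP to dpc8 no member was called. Cyp4a10 measured 198, 233 and 100.3 FPKM in NP zone 1 and 315, 677 and 357 at dpc8, and it was 502, 337 and 538 against 621, 667 and 591 in zone 2. In zone 3 it was 684, 404 and 275 in NP mice and 765, 1367 and 777 at dpc8. Cyp4a10 was therefore higher at dpc8 in every library of every zone, with no overlap, as was the case for either direction in 6.52%, 10% and 9.81% of all genes in zones 1 to 3. Its fitted change was 1.34 (−0.97 to 3.65), 0.48 (−1.84 to 2.79) and 1.14 (−1.17 to 3.45). These intervals rest on the spread that all 9 groups share, and the highest library of a group was 10.9 to 37.7 times the lowest for Cyp4a10 at dpc16, against 1.13 to 2.49 times in the NP and dpc8 groups. None of the 4 members was called in any zone by limma, 0 of 12 values had an unadjusted p under 0.05, and 0 calls were made under each alternative that was run. Over all genes, the share called was 0.0309%, 0.00772% and 0.0154%, and 0.108% when averaged over zones, where 0 of 4 members were called and 0 had an unadjusted p under 0.05. Cyp4a14 changed by 0.58, 0.44 and 1.03 in zones 1 to 3, Cyp4a31 by 0.79, 0.69 and 1.05, and Cyp4a32 by 0.42, −0.34 and 0.58, each with an interval that spans 0.

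Across the lobule, Cyp4a10, Cyp4a14 and Cyp4a32 had lower mean levels in zone 1 than in zone 3 in NP and dpc8 mice, though limma with all 9 groups and no block called none of these differences. Cyp4a14 at dpc8 measured 199.98, 294 and 178 FPKM in zone 1, 507, 508 and 428 in zone 2, and 637, 1230.2 and 724 in zone 3. Cyp4a32 at dpc8 was 8.64, 11.1 and 9.95 in zone 1 and 26.2, 25.2 and 19.1 in zone 3. Zone 1 and zone 3 did not overlap for Cyp4a10 and Cyp4a14 in NP mice, where 12.7% of all genes did not, nor for Cyp4a10, Cyp4a14 and Cyp4a32 at dpc8, where 23.2% did not. Cyp4a12a, which was not tested, had an estimated 0 reads in each dpc8 library of zone 1, 0, 0 and 1 in zone 2 and 12, 11 and 20 in zone 3, so that zone 3 lay apart from both other zones at this stage. At dpc16 all 4 members overlapped, beside 14.7% of genes that did not.

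The fitted differences of zone 1 from zone 3 were negative for all 4 members in NP mice and at dpc8 but not at dpc16. In NP mice they were −1.34 for Cyp4a10 (SE 1.11), −1.47 for Cyp4a14 (SE 1.57), −1.0 for Cyp4a32 (SE 0.73) and −0.34 for Cyp4a31 (SE 0.72). At dpc8 the values were −1.14, −1.92, −1.17 and −0.61 for the same genes, and at dpc16 they were −0.03, −1.83, 0.19 and 0.07. By limma 0 of 12 were called and 0 had an unadjusted p under 0.05, while 1.34%, 1.61% and 1.55% of all genes were called at NP, dpc8 and dpc16. The standard errors come from a spread that all 9 groups share, the dpc16 libraries numbered 3 included. At dpc16, where numbers pair the zones, the blocked fit called Cyp4a14 lower in zone 1 (−1.83, limma adjusted p = 0.0261). It also called Cyp4a14 (−1.92) and Cyp4a32 (−1.17) lower in zone 1 at dpc8, where libraries share only a number. The blocked fit called 3.54% of all genes at dpc8 and 2.65% at dpc16.

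Libraries of the same number were also compared, as a description. Zone 3 exceeded zone 1 in 9 of 9 numbers for Cyp4a14, by 1.48 to 16.5 times, the highest being dpc16 number 3. Cyp4a10 and Cyp4a32 were higher in zone 3 in 7 of 9 numbers each, with all 6 of the NP and dpc8 numbers among them, at 1.73 to 3.46 times for Cyp4a10 and 1.57 to 3.29 times for Cyp4a32. At dpc16 the Cyp4a10 ratio was 0.766 to 1.46 and the Cyp4a32 ratio 0.634 to 1.13, so both genes lay on either side of 1 there. Cyp4a31 was higher in zone 3 in 6 of 9. Over all genes tested, zone 3 exceeded zone 1 in all 3 numbers for 15% in NP mice, 19.2% at dpc8 and 15.5% at dpc16.

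**Figure D5:**
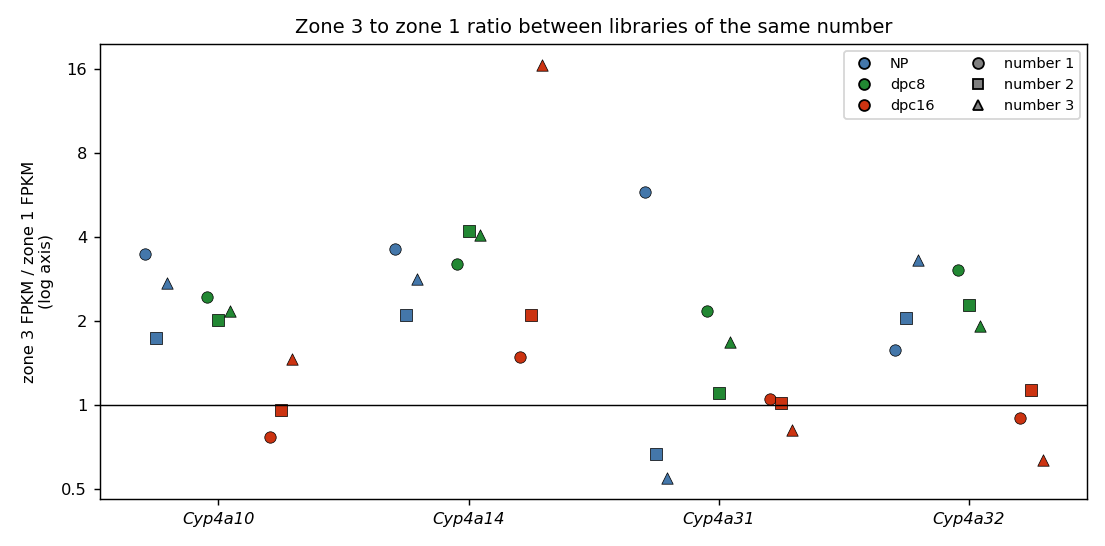
Ratio of zone 3 to zone 1 FPKM (log axis) between libraries of the same number and stage, by member, with colour for the stage and marker shape for the number. Cyp4a14 lies above 1 in all 9, and Cyp4a10 and Cyp4a32 lie above 1 in all NP and dpc8 numbers but on both sides of 1 at dpc16.

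Whether the change with pregnancy differed between zones was tested as a difference of differences. From NP to dpc16, 0 of 4 members had a change in zone 1 that differed from that in zone 3 (0 at an unadjusted p under 0.05, 0.0540% of all genes called), and from NP to dpc8 it was again 0 of 4 (0 at an unadjusted p under 0.05, 0% of all genes). Between neighbouring zones 0 of 24 values were called, with 0 at an unadjusted p under 0.05, and of all genes 0.154% and 0.401% were called in NP mice (zone 1 against zone 2, then zone 2 against zone 3), 0.124% and 0.347% at dpc8 and 0.139% and 0.517% at dpc16. Zones 1 and 2 did not overlap for Cyp4a10, Cyp4a14 and Cyp4a32 in NP mice (10.1% of all genes) nor for Cyp4a14 and Cyp4a32 at dpc8 (7.44%), and zones 2 and 3 did not for Cyp4a10 and Cyp4a14 at dpc8 (13.9%), zone 1 being lower than zone 2 and zone 2 lower than zone 3 in each. The other neighbours overlapped for all 4 members, beside 11.7% of genes without overlap for zones 2 and 3 in NP mice, 8.85% for zones 1 and 2 at dpc16 and 7.13% for zones 2 and 3 at dpc16. The counts of 0 calls for neighbouring zones and for the difference of differences held with limma under every alternative run.

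In the order of group means a dpc16 group came first for every tested member, and all 3 did for Cyp4a10, Cyp4a31 and Cyp4a32. Cyp4a10 ran from 1796 ± 1477 FPKM (SD, n = 3) in dpc16 zone 1 down to 177 ± 68.6 in NP zone 1, and neighbours in that order were apart in 3 of 8 places, between dpc8 zone 3 and dpc8 zone 2, between dpc8 zone 2 and NP zone 2, and between dpc8 zone 1 and NP zone 1. Cyp4a14 ran from 1393 ± 1119 in dpc16 zone 3 to 154 ± 60.4 in NP zone 1 and all neighbours overlapped. Cyp4a31 ran from 165 ± 82.1 in dpc16 zone 1 to 6.62 ± 2.15 in NP zone 1, again with overlap of all neighbours. Cyp4a32 ran from 41.4 ± 31.8 in dpc16 zone 2 to 8.20 ± 4.72 in NP zone 1, and dpc8 zone 2 lay apart from dpc8 zone 1. NP zone 1 was thus the lowest group for each of the 4.

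The genes most like each member over the 27 libraries, by Pearson's r of log2(FPKM + 1), are given as a description, since the libraries share stage and zone. Cyp4a10 was most like Slc25a20, the mitochondrial acylcarnitine carrier (r = 0.943), Hsdl2 (0.941) and Ehhadh (0.921). Cyp4a14 was most like Ech1 (0.874) and Eci1 (0.861), enoyl-CoA isomerases, and Hsdl2 (0.843), and genes like Cyp4a32 included Hsdl2 (0.897) and Acsl1 (0.891), an acyl-CoA synthetase. The genes most like Cyp4a31 were others, 2010003K11Rik (0.948), Ctsz, a lysosomal protease (0.942), and Tmem64 (0.939). Between members, r was 0.914 for Cyp4a10 with Cyp4a32 and 0.890 for Cyp4a10 with Cyp4a14, but 0.393 for Cyp4a14 with Cyp4a31. Over the 18 NP and dpc8 libraries alone, r was 0.771 for Cyp4a10 with Cyp4a32, 0.896 for Cyp4a10 with Cyp4a14 and 0.675 for Cyp4a14 with Cyp4a31, and for Cyp4a31 with Cyp4a32 it was 0.281 against 0.697 over all 27.

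The 3 genes most like Cyp4a31 differed in the dpc16 libraries numbered 3. Tmem64 measured 9.80 to 17.5 FPKM in NP mice and 48.1 to 116 in the dpc16 libraries numbered 3, with 119 to 206 in the numbers 1 and 2. 2010003K11Rik measured 1.90 to 9.27 FPKM in NP mice, 64.1 to 113 in the dpc16 numbers 1 and 2 and 5.24 to 17.6 in number 3. Ctsz measured 82.3 to 136 FPKM in NP mice, 246 to 312 in the numbers 1 and 2 and 126 to 257 in number 3. Hsdl2, a peroxisomal protein, was among the genes most like each of the other tested members. It measured 36.4 to 79.7 FPKM in NP mice, 116 to 184 in the dpc16 numbers 1 and 2, and 20.6 to 37.6 in number 3. Tmem64 was thus above NP in all dpc16 libraries, whereas 2010003K11Rik, Ctsz and Hsdl2 were above all NP libraries in the numbers 1 and 2 and reached into or below the NP range in number 3.

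The list calls averaged over zones come from the fit that treats zones as separate libraries. With 1 mean per number and stage, which respects the pairing at dpc16, 3.08% of all genes were called in place of 11.8%, and the counts that remained are given with each list. In these lists, the block stands for this fit of means, which has no term for the number. Among the PPARA targets, 8 of 35 rose and 0 fell from NP to dpc16 averaged over zones, with a median change of 0.51 against −0.01 over all genes, of which 11.8% were called in either direction. The largest were Fgf21, a hormone of the fasted liver (2.59, 6.01-fold, limma adjusted p = 0.00719), Cd36, a fatty acid transporter (2.25, limma adjusted p = 0.000250), and Acot2, a mitochondrial acyl-CoA thioesterase (1.61, limma adjusted p = 0.00324). With the block, 1 of the 8 calls remained, that of the lipid droplet protein Plin2. By zone, 1 of 35 rose in zone 1 and in zone 3, Plin2 in each (1.82 with limma adjusted p = 0.0339, and 1.75 with limma adjusted p = 0.0457), and 0 in zone 2, beside 1.37%, 2.66% and 1.32% of all genes called in zones 1 to 3. Ehhadh was not called on the averaged scale (1.27, 0.16 to 2.38, limma adjusted p = 0.139). At dpc8, 0 of 35 were called in any zone or on average, with a median of 0.19 on average.

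Of 12 PPARA regulators, 0 rose and 3 fell on average at dpc16 (median −0.16, with 11.8% of all genes called), the coactivator Ppargc1a (−0.88, limma adjusted p = 0.0404) and the receptors Pparg (−0.79, limma adjusted p = 0.0137) and Rxrg (−0.59, limma adjusted p = 0.0455). None of the 3 was called with the block. Ppara was not called in either fit (0.17, −0.30 to 0.63). Of the 5 electron partners (median −0.39, with 11.8% of all genes called), Cyb5r3, a cytochrome b5 reductase, rose (0.78, limma adjusted p = 0.000737), Cyb5b, an outer mitochondrial membrane cytochrome b5, fell (−0.93, limma adjusted p = 0.00277), and Por was not called (0.11, −0.61 to 0.83), while with the block the call of Cyb5r3 remained and that of Cyb5b was lost. Of 18 genes of the omega oxidation route, 0 rose and 1 fell, the alcohol dehydrogenase Adh4 (−0.77, limma adjusted p = 0.0384), a smaller share than the 11.8% of all genes, with a list median of −0.05, and the call was lost with the block.

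Among the other Cyp4 genes none rose. Of the 9 that could be tested, from a list of 14, 0 rose and 3 fell on average at dpc16 (median −0.55, with 11.8% of all genes called), the leukotriene omega-hydroxylase gene Cyp4f14 (−1.56, limma adjusted p = 0.000224), Cyp4f15 (−1.08, limma adjusted p = 0.000126) and Cyp4v3 (−0.90, limma adjusted p = 0.00318), of which Cyp4f14 and Cyp4f15 stayed called with the block. Cyp4f14 measured 135, 192 and 166 FPKM in NP zone 2 and 46.3, 30.7 and 49.0 at dpc16, with no overlap, and its dpc16 library numbered 3 was not the lowest. By zone, these 3 genes were called lower in zone 2 (Cyp4f14 −1.96 with limma adjusted p = 0.0151), where 2.66% of all genes were called. Cyp4a31 was called higher in all 3 zones, with its smallest change (3.53) in zone 2.

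Of genes known to differ between the sexes in liver, 1 of 12 male-biased genes rose and 5 fell on average at dpc16, and of 16 female-biased genes 8 rose and 2 fell, where 11.8% of all genes were called and the list medians were −0.72 and 1.04. With the block, 2 of the 6 male-biased calls remained, Nudt7 and Mup20, and 5 of the 10 female-biased calls, 4 of them higher and 1 lower. The largest falls among the male-biased genes were Nudt7, a peroxisomal nucleotide hydrolase (−2.45, limma adjusted p = 5.22e-06), and the urinary protein Mup20 (−2.09, limma adjusted p = 0.000150), and Gstp1 rose (0.97, limma adjusted p = 0.0383). Among the female-biased genes, A1bg rose (3.16, limma adjusted p = 8.31e-07) and the cytochrome P450 Cyp2b13 fell (−3.75, limma adjusted p = 2.38e-09). The growth hormone receptor Ghr (2.93, limma adjusted p = 7.91e-10) and the prolactin receptor Prlr (2.66, limma adjusted p = 1.92e-08) rose as well, among 3 of 13 genes of their route that rose and 2 that fell, with a list median of −0.24 beside the same 11.8% of all genes, and with the block the calls of Ghr and Prlr alone remained. The male-predominant members Cyp4a12a and Cyp4a12b stayed below 1 FPKM in all dpc16 libraries.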

How the data were processed

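Total RNA from laser-microdissected zones was depleted of ribosomal RNA by the authors (KAPA HyperPrep with RiboErase) and read as single ends of 86 bases. Per the labels and the study's methods, reads were trimmed with cutadapt and mapped to mm10 with HISAT2 2.1.0 and GENCODE vM22, uniquely mapped reads were kept, and the authors computed FPKM per protein-coding gene with Cuffdiff of Cufflinks 2.2.1. The deposited table holds FPKM values with no counts. Depth was estimated from 2201 genes with 1 transcript, in which 91.8% to 97.5% of low values lay within 0.05 reads of a whole number.

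Groups and numbers came from the sample titles. Log2(FPKM + 1) was tested with limma 3.58.1 (R 4.3.3; trend, robust, 9 group means over 27 libraries, which share 1 spread), two-sided, with Benjamini-Hochberg adjustment within each comparison over 12952 genes with at least 1 FPKM in at least 3 libraries and a threshold of 0.05. This scale understates the change of low genes. The fit was tested on simulated data, with NP zone 1 against zone 3 as the comparison. The rule named all 6 members in every comparison, of which the 4 that passed the filter were tested, and from each gene list up to 3 called genes a direction, with Ppara, Ehhadh, Mup20 and Por among those named in any case; some genes that this rule names are not reported here. Members and lists were chosen with earlier results of these data known. Gene positions and transcripts came from GENCODE vM21 (mm10), aligned with mafft. Whether the numbers pair zones was checked by correlating deviations from group means: at dpc16 all 9 same-number pairs of zones had r of 0.263 to 0.863, while NP and dpc8 included values under 0.1. No pair of libraries was identical. The alternatives were a pseudocount of 0.1, no filter, quantile normalization, only the groups compared, array weights, a block for the number and leaving out each library, and, chosen after seeing the data, leaving out libraries with Y-linked RNA or the dpc16 libraries numbered 3, and a connective tissue covariate. The block was fitted within each stage for zone comparisons and shared by all stages for comparisons between stages. Where zones were averaged, it was 1 mean per number and stage with no block term.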

Additional observations from a re-analysis of the deposited data

How the results depend on the processing

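Having 3 libraries a group, and reads shared between paralogs, limits what can be said of the members, and the spread of Cyp4a10 and Cyp4a14 is set largely by the dpc16 libraries numbered 3. The number of calls in zone 1 against zone 3 was 0, and 1 with only the groups compared and 3 with the replicate block, which called Cyp4a14 at dpc8 (−1.92) and dpc16 (−1.83) and Cyp4a32 at dpc8 (−1.17); at dpc8 and NP the libraries share only a number, and the block changed no call of a member beyond these and Cyp4a32 in zone 1 from NP to dpc16. In zone 1 against zone 3, the block called 2.18%, 3.54% and 2.65% of all genes at NP, dpc8 and dpc16. From NP to dpc16 the 3 calls became 1 with only the groups compared, 7 with array weights and 12 without the dpc16 libraries numbered 3. Of all genes, 0.456%, 0.131% and 0.309% in zones 1 to 3 were called with only the groups compared. With array weights it was 5.15%, 8.5% and 5.99%, against 1.37%, 2.66% and 1.32% without weights. From dpc8 to dpc16 the 3 calls became 1 with a pseudocount of 0.1, with no filter, with quantile normalization and with only the groups compared, and 9 without the libraries numbered 3. The 2 calls averaged over zones became 7 with array weights, 5 without the libraries with Y-linked RNA, 8 without those numbered 3, and 2 to 5 when 1 library was left out (4, 5 and 5 without dpc16 number 3 of zones 1, 2 and 3). Averaged over zones, array weights called 22.4% of all genes from NP to dpc16 and 27.2% from dpc8 to dpc16. Without weights it was 11.8% and 11.1%, and without the libraries with Y-linked RNA 16.6% and 18.7%. The shares without the libraries numbered 3 are not given here. The cause of these changes was not tested.

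Values that were not called changed sign as follows. In zone 1 against zone 3 at dpc16, Cyp4a10 was 0.22, Cyp4a31 −0.040 and Cyp4a32 −0.013 without the libraries numbered 3, Cyp4a31 −0.24 and Cyp4a32 −0.25 with array weights, Cyp4a31 −0.57 and Cyp4a32 −0.66 without Y-linked libraries, and Cyp4a31 −0.16 with the connective tissue covariate. That covariate also gave 0.0037 for Cyp4a31 in zone 1 against zone 3 at dpc8, −0.40 for Cyp4a14 from NP to dpc16 in zone 1 and 0.041 for Cyp4a32 from NP to dpc8 in zone 2. Quantile normalization gave −0.33 for Cyp4a14 from NP to dpc16 in zone 2. With 1 library left out, the ranges that crossed 0 were, from NP to dpc16, −0.090 to 2.52 for Cyp4a10 in zone 2, −0.83 to 2.97 and −1.18 to 2.14 for Cyp4a14 in zones 1 and 2, and −0.12 to 1.54 for Cyp4a32 in zone 2. From NP to dpc8 it was −0.13 to 0.73 for Cyp4a32 in zone 1. In zone 1 against zone 3 they were −0.73 to 0.37 for Cyp4a31 in NP mice and, at dpc16, −1.17 to 1.36 for Cyp4a10, −3.25 to 0.60 for Cyp4a14, −0.57 to 0.60 for Cyp4a31 and −0.66 to 0.84 for Cyp4a32.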
